A study of Caenorhabditis elegans with 2 samples.

Results

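The snoRNA genes of Caenorhabditis elegans were examined for binding of tagged ALY-2 in their surroundings. The set held every gene of biotype snoRNA on the 6 nuclear chromosomes of the WBcel235 annotation, 346 of 46890 nuclear genes. Each gene was given the highest region of the pooled list whose summit lay within 500 bp of it, that region's rank by height in the pooled list, the rank of the highest such region in each replicate, and membership of the optimal list. The optimal list is the authors' list of 368 reproducible peaks, and they were the 368 highest regions of the 17335 in the pooled list.

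The data came from chromatin immunoprecipitation and sequencing (ChIP-seq) of whole third-stage (L3) larvae, males and females pooled. All worms were of strain OP217, with the genotype unc-119(ed3) III; ddIs172, so each carried an unc-119 mutation and an insertion for eGFP-tagged aly-2, whose promoter the labels do not state. The 2 biological replicates formed 1 group, and no control samples were analysed here, although the labels name a possible control experiment. One label gives aly-2 as the antibody and another describes the target as eGFP-aly-2, and no source used here says which protein the antibody recognises. With 1 group, all comparisons are between genes within the same worms, and cell types cannot be told apart in whole larvae.

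Small nucleolar RNAs (snoRNAs) guide the chemical modification of ribosomal and other RNAs. Those with a C box and a D box direct 2′-O-methylation, and those with an H box and an ACA box direct pseudouridylation. Many are cut out of the introns of host genes, while others are transcribed from promoters of their own. Among small RNA genes, snRNA genes use a proximal sequence element placed before the start, and tRNA genes use an A box and a B box within the transcribed part, which RNA polymerase III factors recognise. ALY-2 is an Aly/REF protein, a family of adaptors for mRNA export.

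A summit of the optimal list lay near 27 of the 346 snoRNA genes, which is 7.80% (95% Wilson interval 5.42 to 11.1%), against 1.35% of all nuclear genes. Of the 27, 20 carried 1 of 2 short sequence patterns directly before the annotated gene, both in introns and outside them. An element with the letters CGNAACNCG, then 5 bases, then TGTC, called the CG element here, preceded 11 of the 27. An A box followed 20 to 70 bases later by GTTC and a purine, called the A and B box pair here, preceded 9 others, and 7 had neither. Both were searched in the 150 bases before each gene on the gene's own strand, and no snoRNA gene had both. They were recognised in the sequences of these genes after the regions had been ranked, so their counts are descriptions and carry no test.

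The 110 bases before the 6 highest-ranked snoRNA genes with the CG element are shown because they hold the sequence these genes share. Coordinates are on ce11 (WBcel235), the sequence is that of the RefSeq copy, and each reads 5′ to 3′ on the gene's strand and ends at the base before the gene. Capitals mark the CG element and its TGTC.
C16D9.11, chrV:8228970-8229079, minus strand: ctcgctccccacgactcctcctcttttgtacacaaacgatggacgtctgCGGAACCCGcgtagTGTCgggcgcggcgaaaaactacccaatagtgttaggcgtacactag
ZK994.7, chrV:8500469-8500578, plus strand: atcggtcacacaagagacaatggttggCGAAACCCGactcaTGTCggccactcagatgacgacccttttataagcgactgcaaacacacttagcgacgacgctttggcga
C18A3.12, chrII:5701552-5701661, plus strand: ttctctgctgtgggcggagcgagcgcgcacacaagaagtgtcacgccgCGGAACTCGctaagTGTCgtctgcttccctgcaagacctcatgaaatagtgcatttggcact
Y53F4B.47, chrII:15025894-15026003, minus strand: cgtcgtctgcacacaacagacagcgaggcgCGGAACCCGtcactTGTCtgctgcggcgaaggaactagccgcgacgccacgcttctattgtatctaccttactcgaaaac
Y55F3BR.9, chrIV:867134-867243, minus strand: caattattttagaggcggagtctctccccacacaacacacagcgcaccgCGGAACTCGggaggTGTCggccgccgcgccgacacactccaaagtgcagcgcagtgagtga
T06D8.11, chrII:11224072-11224181, plus strand: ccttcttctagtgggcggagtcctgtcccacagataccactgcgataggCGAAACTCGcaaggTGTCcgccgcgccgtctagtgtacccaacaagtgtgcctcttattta

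The same stretch is shown for the 6 highest-ranked snoRNA genes with the A and B box pair, because the boxes lie before the gene they are listed with. The boxes shown for C51F7.3 lie inside another annotated snoRNA gene, C51F7.4, which ends shortly before it. Capitals mark the A box and the GTTC of the B box.
K11C4.6, chrV:6888966-6889075, plus strand: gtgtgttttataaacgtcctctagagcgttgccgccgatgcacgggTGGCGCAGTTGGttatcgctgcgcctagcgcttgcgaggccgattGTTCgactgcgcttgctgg
C51F7.3, chrV:12303598-12303707, plus strand: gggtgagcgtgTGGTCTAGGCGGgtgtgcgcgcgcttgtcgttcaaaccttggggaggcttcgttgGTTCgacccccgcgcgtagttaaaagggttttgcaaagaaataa
C04G6.12, chrII:5105232-5105341, minus strand: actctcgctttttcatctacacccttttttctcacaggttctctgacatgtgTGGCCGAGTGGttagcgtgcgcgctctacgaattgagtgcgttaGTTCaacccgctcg
C10C6.8, chrIV:11474192-11474301, minus strand: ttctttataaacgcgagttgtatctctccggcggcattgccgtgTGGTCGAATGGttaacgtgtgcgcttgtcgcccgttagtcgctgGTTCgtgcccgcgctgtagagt
Y75B12B.12, chrV:15191094-15191203, minus strand: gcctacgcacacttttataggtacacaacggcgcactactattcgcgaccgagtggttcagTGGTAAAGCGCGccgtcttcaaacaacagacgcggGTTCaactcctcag
F32E10.10, chrIV:7574012-7574121, plus strand: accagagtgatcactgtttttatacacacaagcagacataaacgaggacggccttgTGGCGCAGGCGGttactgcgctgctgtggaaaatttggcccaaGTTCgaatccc

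The position of the CG element varied little. Its first base lay a median 62 bases before the gene in the 31 snoRNA genes that had it, between 83 and 57 bases before, and in 23 of them between 65 and 58 bases before. In the 38 snoRNA genes with the A and B box pair, the A box began a median 59 bases before the gene (99 to 49) and the GTTC a median 14.5 bases before it (44 to 5). No annotated tRNA gene lay in any of these 69 windows. The CG element was found before 8.96% of snoRNA genes, 22.5% of snRNA genes (29 of 129) and 0.0200% of protein-coding genes (4 of 19973), and before 0.175% of all genes (82 of 46886). On the other strand of the same windows it was found before 0 snoRNA genes. The A and B box pair was found before 11.0% of snoRNA genes and 0.454% of all genes (213 of 46886), and on the other strand before 1 snoRNA gene.

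Of the 31 snoRNA genes with the CG element, 11 had an optimal summit (35.5%, 21.1 to 53.1%). Of the 38 with the A and B box pair, 9 did (23.7%, 13.0 to 39.2%), against 7 of the 277 with neither (2.53%, 1.23 to 5.12%). The same order appeared in each replicate taken alone, for the highest 368 regions of its list. The pooled list comes from both replicates, and the elements were recognised after its regions were ranked. The order in each replicate is therefore no independent support. In replicate 1, 15 of the 69 genes with either element had such a region (21.7%) against 5 of 277 with neither (1.81%), and in replicate 2 the counts were 18 of 69 (26.1%) and 9 of 277 (3.25%). Both replicates placed a region among their highest 368 at 10 of the 69 genes with an element and at 1 of the 277 without. That 1 gene was C51F7.4, which shares its region with C51F7.3, a gene with the A and B box pair. The median pooled rank was 477 for the CG element, 836 for the A and B box pair and 4575 for neither, over the 24, 25 and 117 genes that had a pooled region. An element did not always go with a high region, since 20 genes with the CG element and 29 with the A and B box pair had no optimal summit, and of these 13 and 16 had a lower pooled region.

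**Figure D1:**
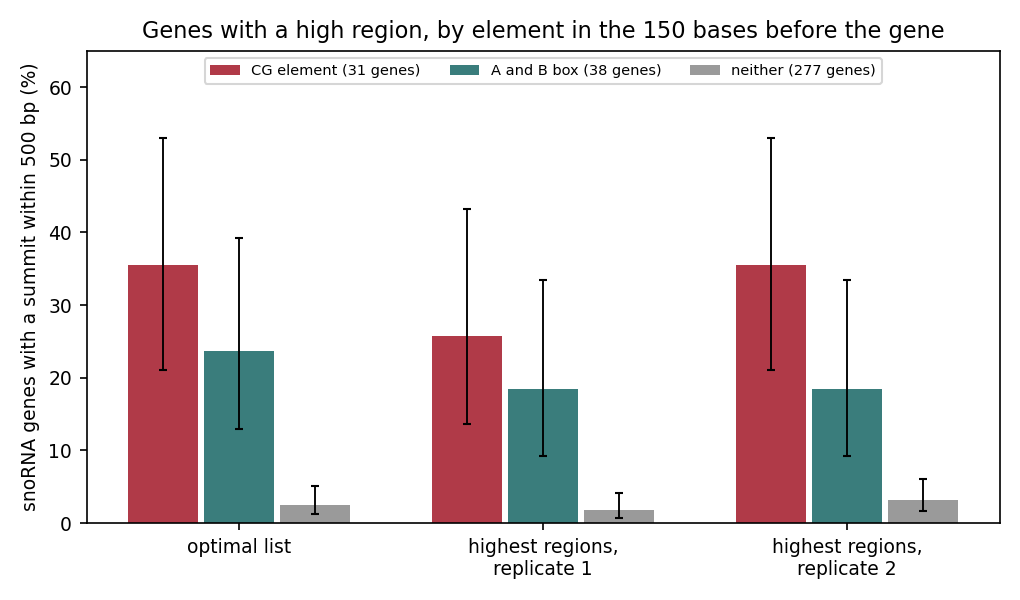
Share of snoRNA genes with a summit within 500 bp in the optimal list and among the highest 368 regions of each replicate, by the element in the 150 bases before the gene. Bars are shares in percent with 95% Wilson intervals over genes. In all 3 lists the bars for the CG element and the A and B box pair stand above that for genes with neither, which is at most 3.25%.

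Outside the snoRNA genes, the CG element preceded 51 genes, and 3 of these had an optimal summit. They were sup-6 (annotated as snRNA, pooled rank 21, height 111.7), sls-2.8 (a spliced leader gene annotated as snRNA, rank 52, height 79.6) and rpr-1 (the RNA of RNase P, rank 361, height 43.8). Of the 51, 29 were snRNA genes, and 2 of these 29 had an optimal summit, beside 11 of all 129 snRNA genes (8.53%). The A and B box pair preceded 175 other genes, of which 1 had an optimal summit, beside 1.35% of all nuclear genes. Whether either element goes with high regions outside the snoRNA genes was not tested. The 3 genes named here were chosen after their values were seen.

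Where the summit lay differed between the elements, as a description of these 27 genes. At the 11 genes with the CG element the summit fell a median 105 bp beyond the snoRNA 5′ end (51 bp before to 275 bp beyond), and in 8 of 11 it lay beyond that end. At the 9 genes with the A and B box pair it fell a median 82 bp before the 5′ end (145 bp before to 106 bp beyond), and in 6 of 9 it lay before that end. The difference was smaller over all genes with a pooled region. There the summit lay before the 5′ end at 13 of 25 genes with the A and B box pair (median 39 bp before). It did so at 7 of 24 genes with the CG element (median 52 bp beyond). Of the summits at A and B box genes, 7 of 9 were within 100 bp of the start of the A box, and of those at CG element genes, 3 of 11 were within 100 bp of the start of the element. The regions have a median width of 396 bp in the pooled list, and library fragments were 150 to 350 bp long per the labels, which limits how finely a summit can be placed.

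**Figure D2:**
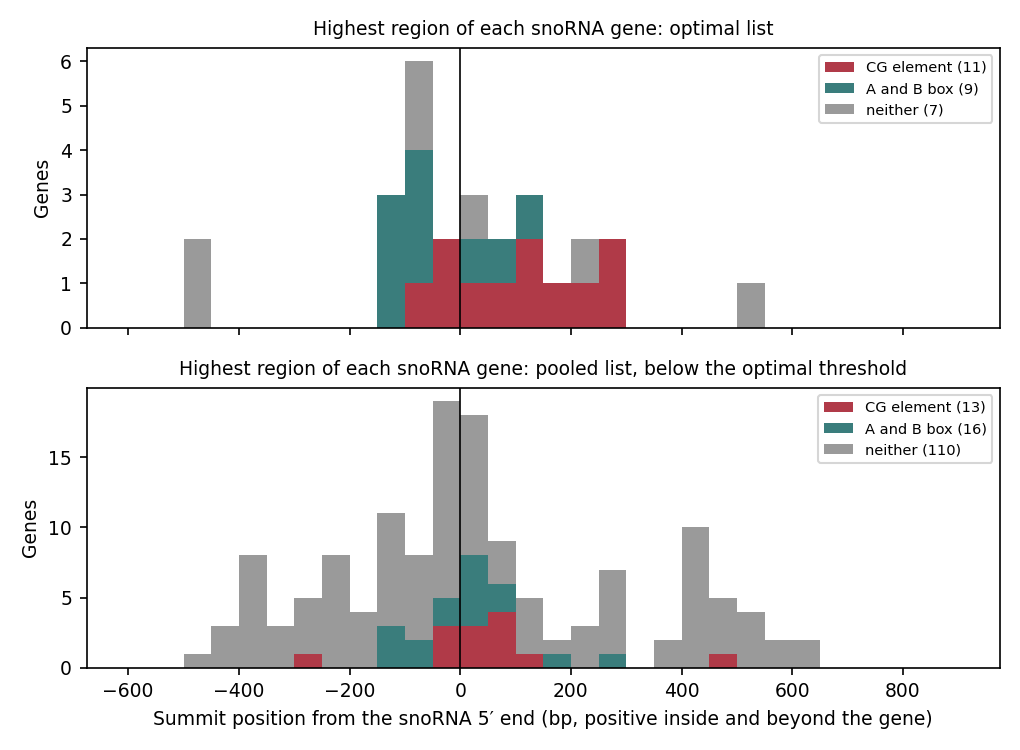
Position of the summit of each snoRNA gene's highest pooled region relative to the snoRNA 5′ end (x axis, bp, 50-bp bins) and the number of genes (y axis), stacked by element. The upper panel holds the 27 genes with an optimal summit and the lower panel the 139 genes whose highest region is below the optimal threshold. In the upper panel the CG element genes lie mostly to the right of the 5′ end and the A and B box genes mostly to the left. Over both panels together, 13 of 25 A and B box genes and 7 of 24 CG element genes lie to the left.

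The 2 highest snoRNA regions with the CG element were in introns. C16D9.11 (chrV:8228900-8228969, minus strand), in intron 27 of the receptor tyrosine kinase gene rol-3, had a pooled height of 95.5 and ranked 31. Its height was 40.7 in replicate 1, rank 52, and 60.8 in replicate 2, rank 30. ZK994.7 (chrV:8500579-8500645, plus strand), in intron 17 of the peroxidasin gene pxn-1, ranked 36 in the pooled list, with heights of 34.4 in replicate 1 (rank 87) and 49.2 in replicate 2 (rank 45). Both were thus within the highest 100 of every list. T06D8.11 (chrII:11224182-11224258, plus strand), in intron 2 of plpr-1, ranked 88, below the free-standing genes C18A3.12 (66) and Y53F4B.47 (84). Its heights were 35.8 (rank 75) and 30.4 (rank 262) in replicates 1 and 2.

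The 4 free-standing genes with the CG element and an optimal summit ranked from 66 to 363. C18A3.12 (chrII:5701662-5701726, plus strand) ranked 66 with a pooled height of 74.98, and its replicate heights were 38.2 (rank 63) and 39.6 (rank 97). Its summit lay inside the snoRNA gene, 47 bp from its 5′ end. Y53F4B.47 (chrII:15025814-15025893, minus strand) ranked 84, with replicate heights of 31.8 (rank 101) and 35.6 (rank 146), and the 5′ end of the coding gene cmtr-1 lay 177 bp from that summit. On chromosome I, F25H2.15 ranked 288, but 2822 in replicate 1 and 200 in replicate 2, and F59C6.15 ranked 363, 316 and 273 in the pooled list and replicates 1 and 2. At F25H2.15 and F59C6.15 no replicate 1 region lay over the pooled summit, so their replicate 1 ranks belong to other regions within 500 bp. F25H2.15 had a second optimal summit within 500 bp.

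The other 4 genes with the CG element lay in introns, 2 of them on the opposite strand of the coding gene. Y55F3BR.9 (chrIV:867056-867133, minus strand), on the opposite strand within intron 16 of Y55F3BR.2, ranked 87, but 1057 in replicate 1 (height 18.5) and 40 in replicate 2 (height 51.4). Y37E3.20, in intron 7 of pcyt-2.1 on chromosome I, ranked 151 in the pooled list, 648 in replicate 1 and 161 in replicate 2. C07A9.14 (chrIII:9717380-9717458, plus strand), opposite in strand to the sodium/calcium exchanger gene ncx-7 and within its intron 7, ranked 195, 720 and 309 in the pooled list and replicates 1 and 2. These 3 were placed higher by replicate 2. C08D8.3 (chrV:8349108-8349187, plus strand), in intron 7 of C08D8.1, went the other way, with ranks of 254, 210 and 503. Its highest replicate 1 region was not the one over the pooled summit, which ranked 1059 in that replicate.

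The highest region with the A and B box pair was at K11C4.6 (chrV:6889076-6889145, plus strand), in intron 7 of the beta-spectrin gene unc-70. It ranked 49 with a pooled height of 80.8, and its replicate heights of 41.0 and 41.3 ranked 49 and 83. C51F7.3 (chrV:12303708-12303783, plus strand), in intron 4 of frm-7, shared 1 region with its neighbour C51F7.4 (chrV:12303599-12303693), which had neither element before it. That region ranked 60, 39 and 132 in the pooled list and replicates 1 and 2, so the 27 genes rest on 26 distinct regions. C04G6.12 (chrII:5105157-5105231, minus strand), in intron 3 of the MAP kinase gene mpk-2 but on the opposite strand, ranked 111, 103 and 295. C10C6.8 (chrIV:11474059-11474191, minus strand), in intron 7 of the P-type ATPase gene catp-8, ranked 139, 127 and 328. All 5 of these genes were among the highest 368 in both replicates.

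The remaining genes with the A and B box pair stood lower, and none was among the highest 368 of both replicates. Y75B12B.12 (chrV:15190976-15191093) ranked 188, 1417 and 226 in the pooled list and replicates 1 and 2, with the 3′ end of the cyclophilin gene cyn-3 98 bp from its summit. F32E10.10 (chrIV:7574122-7574191) ranked 206, 1067 and 119. Both were free-standing with the summit inside the snoRNA gene. T19B4.8 on chromosome I, also free-standing, ranked 260, 308 and 698, and ZK546.18 (chrII:4942395-4942519, minus strand), in intron 4 of the Mediator subunit gene mdt-4, ranked 291, 253 and 475. T02E1.9 on chromosome I, which overlaps spe-12, ranked 271, but 10760 in replicate 1 and 199 in replicate 2.

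Of the 7 genes with neither element, C06A1.9 (chrII:10562952-10563064, minus strand) had the highest region of the whole set. It lies in intron 1 of cdc-48.1, which encodes the AAA ATPase p97, and its region ranked 4 with a height of 156.9. The summit was 497 bp from the snoRNA gene and 154 bp from the 5′ end of cdc-48.1, the only one of the 27 summits nearer to a coding 5′ end than to the snoRNA. Replicate 2 ranked it 5 (height 86.6). The replicate 1 region over the same summit also ranked 5 (height 68.8), but its own summit fell outside 500 bp, so the highest replicate 1 region within 500 bp ranked only 26586.

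K07C10.2 (chrII:11167217-11167303, plus strand) was free-standing and ranked 75, with 45 in replicate 1 and 385 in replicate 2. W01H2.11 (chrX:4222324-4222465, minus strand) was the only X-linked member of the 27 and ranked 163, 483 and 165, with its summit 487 bp from the gene. The last 3 genes with neither element were ranked lower by replicate 1 than by replicate 2. ZK265.10 on chromosome I ranked 236, 4433 and 164, F58D5.12 on chromosome I ranked 247, 3115 and 67, and F41E6.18 (chrV:8615623-8615756) ranked 333, 706 and 560. The F41E6.18 summit lay 3 bp from the 3′ end of smk-1, which encodes a regulatory subunit of protein phosphatase 4, and was the only one of the 27 nearer to a coding 3′ end than to the snoRNA.

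The 27 pooled heights ran from 43.7 to 156.9 with a median of 57.8, and 11 ranked within the highest 100 pooled regions. In 25 of the 27 the snoRNA gene was nearer to the summit than any end of a protein-coding gene. The same held for 140 of all 166 snoRNA genes with a pooled region. All these summits were chosen for lying within 500 bp of a snoRNA gene, so the count is not particular to the optimal summits. Among the 27 genes the median distance was 64 bp, 18 summits lay within 100 bp of the gene and 4 inside it.

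Over the whole set, a pooled region of any height lay near 166 of 346 genes (47.98%, 42.8 to 53.2%), against 31.1% of all nuclear genes and 46.2% of protein-coding genes. Protein-coding genes are longer, with a median of 2027 bases against 130 for snoRNA genes, and so cover more sequence within the same window. In the optimal list the snoRNA share of 7.80% stood beside 8.53% for snRNA genes (11 of 129), 2.38% for protein-coding genes, 2.12% for tRNA genes, 1.15% for miRNA genes and 0.0846% for piRNA genes. Over all genes other than protein-coding ones it was 0.594%. These shares were not tested against each other.

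Both replicates contributed to the count, but not equally. Among the highest 368 regions of each replicate, 20 snoRNA genes were found in replicate 1 (5.78%, against 1.28% of all nuclear genes) and 27 in replicate 2 (7.80%, against 1.27%). Only 11 genes were found in both (3.18%), and all 11 also had an optimal summit. Of the other 16 genes with an optimal summit, 4 were among the highest in replicate 1 alone, 11 in replicate 2 alone and 1 in neither. When the replicate region over each pooled summit was taken instead, 11 genes with an optimal summit were again high in both replicates. C06A1.9 then stood in place of F59C6.15. A further 10 snoRNA genes were among the highest in 1 replicate without an optimal summit, among them C16A3.11 in an intron of rps-13, which ranked 111 in replicate 1 and 848 in replicate 2. Across the 128 genes listed in both replicates the heights had a Spearman rho of 0.476, a description across genes that share both libraries. At the other end, 94 of the 346 genes had no region within 500 bp in any of the 3 relaxed lists.

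**Figure D3:**
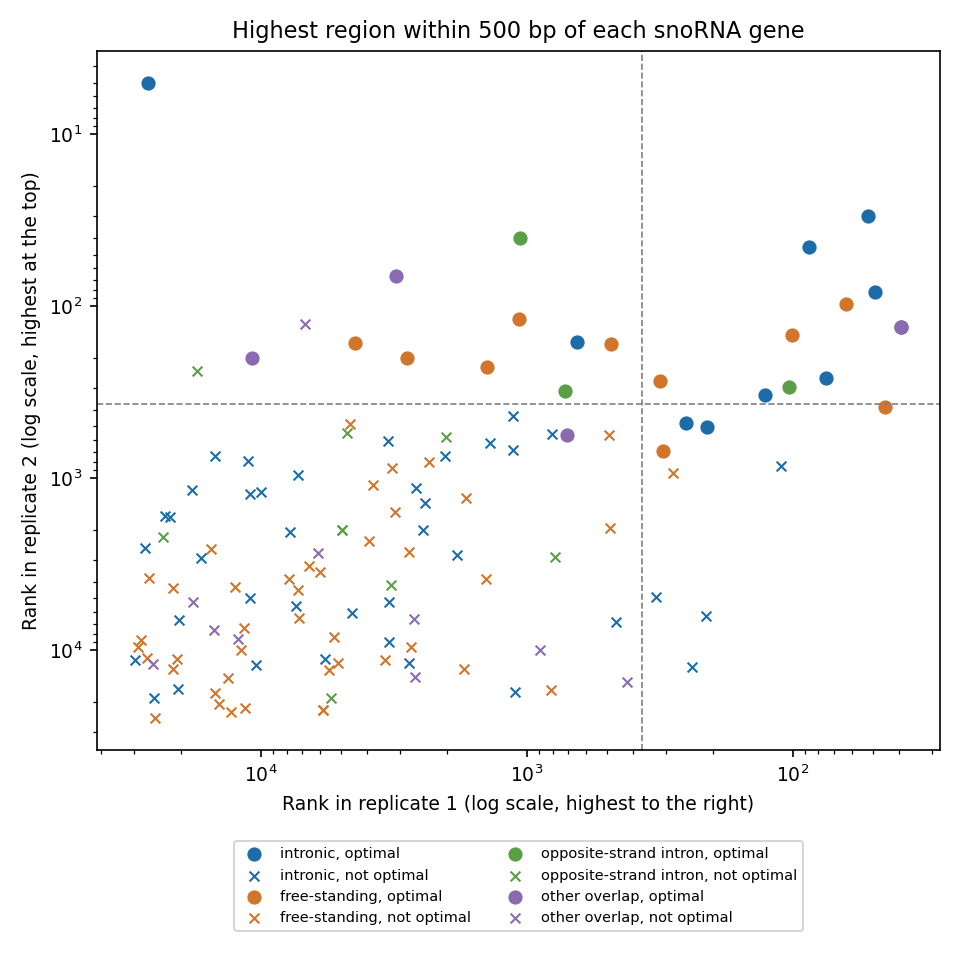
Rank of the highest region within 500 bp of each snoRNA gene in replicate 1 (x axis) and replicate 2 (y axis), both on log scales with the highest ranks to the right and the top, for the 128 genes listed in both. Filled circles have an optimal summit, colours give the position of the gene, and dashed lines mark rank 368. The upper right corner holds the 11 genes that are among the highest in both replicates; C51F7.3 and C51F7.4 share a point there, and the circle at the upper left is C06A1.9.

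The design question for this set was whether snoRNAs in introns of host genes differ from free-standing ones. Of the 346 genes, 150 lay wholly in an intron of a protein-coding gene on the same strand, in 130 different hosts, and 124 overlapped no protein-coding gene. The other 72 were described but not tested: 28 lay in an intron on the opposite strand and 44 overlapped a coding gene in another way. An optimal summit lay near 10 of 150 intronic genes (6.67%, 3.66 to 11.8%) and 10 of 124 free-standing genes (8.06%, 4.44 to 14.2%). The odds ratio, intronic over free-standing, was 0.815 with a 95% interval of 0.293 to 2.27 (Fisher's exact test, two-sided, Benjamini-Hochberg adjusted over 5 comparisons, adjusted exact p = 1). The interval leaves room for a sizeable difference either way, and the direction changed in 5 of 12 alternatives, among them replicate 1 taken alone (1.71).

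The other lists gave no call either. A pooled region of any height lay near 68 of 150 intronic genes (45.3%) and 65 of 124 free-standing genes (52.4%), an odds ratio of 0.754 (0.454 to 1.25, adjusted exact p = 0.56). In replicate 1 the highest 368 regions touched 12 intronic genes (8%) and 6 free-standing genes (4.84%), an odds ratio of 1.71 (0.572 to 5.72, adjusted exact p = 0.56). In replicate 2 they touched 10 intronic genes (6.67%) and 9 free-standing genes (7.26%), an odds ratio of 0.913 (0.321 to 2.63, adjusted exact p = 1). The replicates thus leaned in different directions, both within intervals that span 1.

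**Figure D4:**
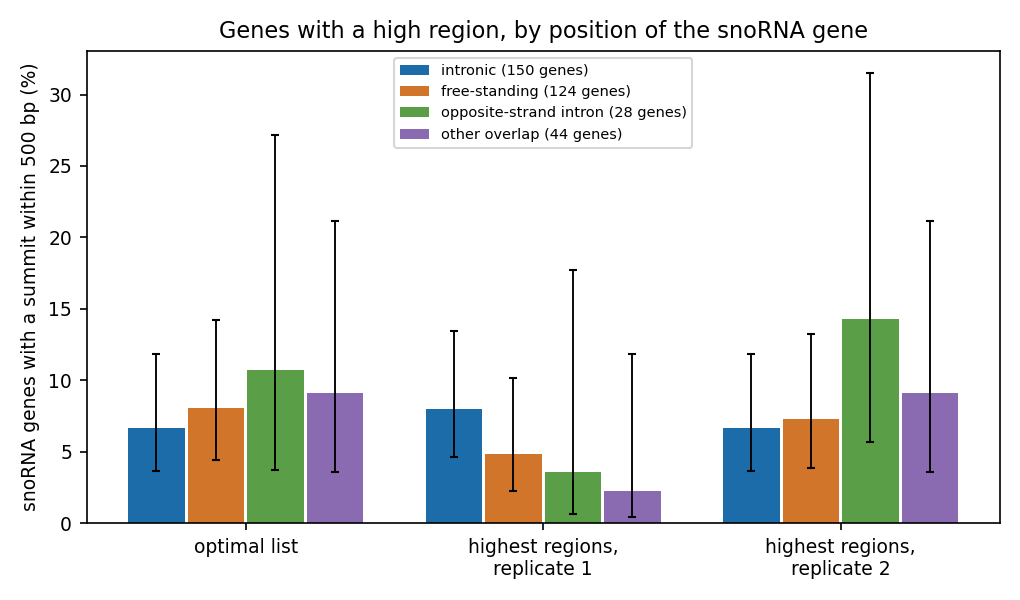
Share of snoRNA genes with a summit within 500 bp in the optimal list and among the highest 368 regions of each replicate, by position relative to protein-coding genes. Bars are shares in percent with 95% Wilson intervals over genes, and the intervals of intronic and free-standing genes overlap in all 3 lists.

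Among genes with an optimal summit, the heights of the 10 intronic genes had a median of 72.3 (46.6 to 156.9) and those of the 10 free-standing genes a median of 52.3 (43.7 to 74.98). The 156.9 is that of C06A1.9, whose summit lay nearer to the 5′ end of cdc-48.1 than to the snoRNA. The difference in height was not tested. Over all genes with a pooled region the median heights were 24.3 for intronic and 21.3 for free-standing genes, at median ranks of 3078.5 and 4977. Both positions showed the same split by element. Of 30 intronic genes with either element 9 had an optimal summit (30.0%), and of 120 without 1 did (0.833%), which was C06A1.9. Of 26 free-standing genes with either element 7 had one (26.9%), and of 98 without 3 did (3.06%).

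The introns themselves were compared with the other introns of the same host transcripts. An optimal summit lay in 9 of 146 introns that hold a snoRNA gene (6.16%, 3.28 to 11.3%) and in 1 of 945 other introns (0.106%, 0.0187 to 0.597%). The introns that hold a snoRNA gene are longer, with a median of 374.5 against 110 bases. In all, the 146 introns cover 380095 bases and the 945 others 494665 bases. Per megabase the introns that hold a snoRNA gene had 26.3 and the others 2.02 optimal summits. Of the 10 optimal summits in the introns that hold a snoRNA gene, 6 lay within 500 bp of a snoRNA gene. For pooled regions of any height the densities were 334 and 311 per megabase. Of the 10 intronic snoRNA genes with an optimal summit, 6 had it within the intron that holds them.

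Genes of ribosomal proteins are a common class of snoRNA host. Hosts named rpl or rps held 19 snoRNA genes, and hosts with other names were not counted here. None of the 19 had an optimal summit and 11 had a pooled region, beside 6.67% and 45.3% of all intronic snoRNA genes, and with so few genes a lower share was not detectable. The highest of these followed directly below the optimal list. Y43B11AR.7, in an intron of rps-4, ranked 374 (height 43.5), Y24D9A.9, in an intron of rpl-7A, ranked 453, and F54E7.10, in an intron of rps-12, ranked 523. At all 3 the summit was nearer to an end of a coding gene than to the snoRNA, 198 bp from the rps-4 3′ end, 89 bp from the rpl-7A 5′ end and 134 bp from the 5′ end of ska-3. Among those without a pooled region, C16A3.11 in an intron of rps-13 had its nearest pooled summit 551 bp away, just outside the 500-bp limit.

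The other genes directly below the optimal list were mostly short. C16D9.10, which is free-standing and has the CG element, ranked 402 with its summit inside the gene, and smy-2, also with the CG element, ranked 552. M106.6, in an intron of the condensin gene mix-1, and Y43F8C.22 have the A and B box pair and ranked 531 and 562. ZK484.9 ranked 532, F30H5.4 ranked 585, with its summit 56 bp from the 3′ end of the myosin chaperone gene unc-45, and F12F6.11 ranked 618, all 3 with neither element. Just inside the 500-bp limit were B0412.6 at 479 bp, W01H2.11 at 487 bp and C06A1.9 at 497 bp from a pooled summit, and just outside it F28C6.11 at 507 bp, B0393.10 at 508 bp and R151.11 at 515 bp.

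The 2 snoRNA classes were separated by their boxes as far as the gene sequences allowed. A gene was called C/D-like when ATGATGA or GTGATGA began in its first 25 bases and CTGA lay in its last 25, and H/ACA-like when it had no such pair and ACA stood 2 to 4 bases before its end. By these rules 12 genes were C/D-like, 75 H/ACA-like and 259 unassigned. An optimal summit lay near 4 of 12 C/D-like genes (33.3%, 13.8 to 60.9%) and 3 of 75 H/ACA-like genes (4%, 1.37 to 11.1%). The odds ratio, C/D-like over H/ACA-like, was 11.4 (1.62 to 92.5, Fisher's exact test, two-sided, Benjamini-Hochberg adjusted over 5 comparisons, adjusted exact p = 0.0305). This call was lost in 6 of 12 alternatives, the adjusted exact p ranging from 0.0142 to 0.177 over all 12, and with replicate 2 alone it was 0.0877 (3 of 12 against 2 of 75 genes).

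The 4 C/D-like genes are shown whole, with the C box and D box in capitals, because the call rests on them. The sequence is that of the gene's own strand on ce11, from the RefSeq copy.
C51F7.3, chrV:12303708-12303783, plus strand: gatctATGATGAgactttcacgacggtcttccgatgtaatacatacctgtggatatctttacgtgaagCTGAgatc
C18A3.12, chrII:5701662-5701726, plus strand: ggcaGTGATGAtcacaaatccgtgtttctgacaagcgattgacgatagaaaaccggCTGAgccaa
Y55F3BR.9, chrIV:867056-867133, minus strand: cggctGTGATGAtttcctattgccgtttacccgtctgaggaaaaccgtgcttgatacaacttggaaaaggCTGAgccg
C08D8.3, chrV:8349108-8349187, plus strand: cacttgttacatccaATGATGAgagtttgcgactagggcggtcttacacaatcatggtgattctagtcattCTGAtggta

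All 4 also had an element before the gene, the A and B box pair at C51F7.3 and the CG element at the other 3. Of the 12 C/D-like genes 8 had an element, and of the 75 H/ACA-like genes 13. Among genes with an element, 4 of 8 C/D-like and 2 of 13 H/ACA-like genes had an optimal summit, and among genes without one 0 of 4 and 1 of 62. The 3 H/ACA-like genes were C06A1.9, C10C6.8 and ZK546.18. The part of the elements in the difference between the classes was not tested.

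Short genes held most of the optimal summits. Of 93 snoRNA genes under 100 bases 18 had one (19.4%), and of 253 longer ones 9 did (3.56%), a split chosen after the values were seen and not tested. The 27 genes had a median length of 80 bases and the other 319 a median of 131. Length and element went together in part, since the median length was 103 bases with the CG element, 90 with the A and B box pair and 133 with neither, and C/D-like genes (median 78 bases) were shorter than H/ACA-like ones (133). Of short genes with either element 14 of 35 had an optimal summit (40%), and of short genes with neither 4 of 58 (6.90%). Of longer genes with either element 6 of 34 had one (17.6%), and of longer genes with neither 3 of 219 (1.37%).

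**Figure D5:**
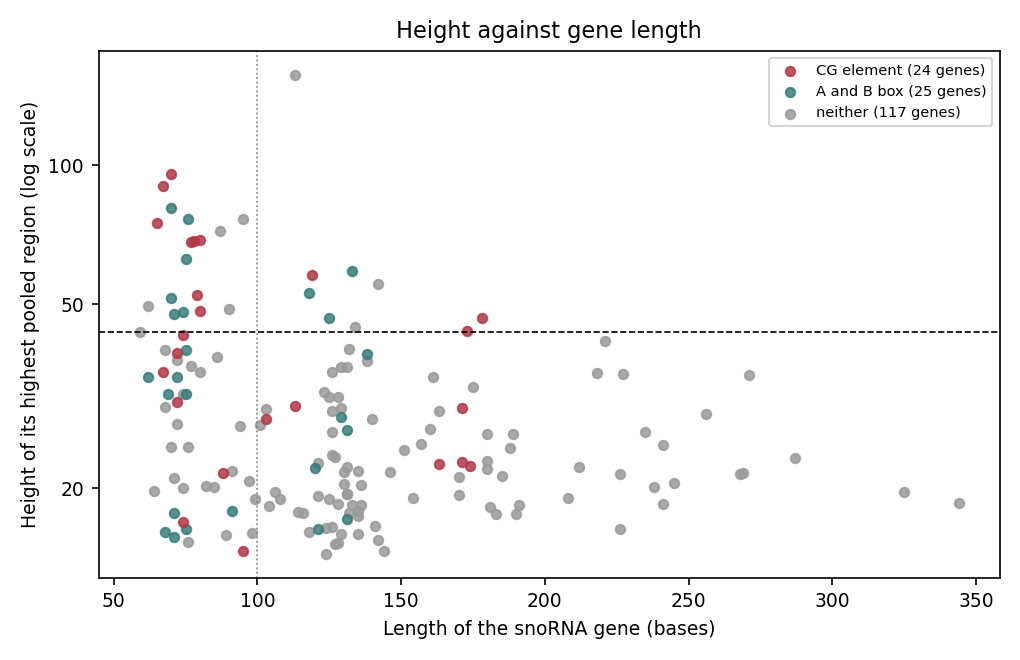
Height of the highest pooled region within 500 bp (y axis, log scale, the authors' signal value) against the length of the snoRNA gene (x axis, bases) for the 166 genes with a pooled region, coloured by element. The dashed line is the lowest height of the optimal list and the dotted line a length of 100 bases. Of the 27 genes with an optimal summit 18 lie left of the dotted line, and the highest point, at 113 bases, is C06A1.9.

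By chromosome, 8 of 55 snoRNA genes on V had an optimal summit, 7 of 71 on II, 7 of 74 on I, 3 of 59 on IV, 1 of 54 on III and 1 of 33 on X. On I replicate 1 placed 2 genes and replicate 2 placed 8 among their highest 368 regions, and on IV 1 and 5.

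The genes of the core snoRNP proteins, which bind snoRNAs and carry out the modifications, were looked up in the same way. Of the 8, 1 reached the optimal list, beside 2.38% of all protein-coding genes, and 8 genes are too few to compare these shares. The gene was snu-13 (M28.5), whose product binds the C/D snoRNA fold. It had a pooled rank of 253 (height 48.5) and ranks of 628 and 369 in replicates 1 and 2. Next were dkc-1 (K01G5.5), the pseudouridine synthase of H/ACA particles, at 694 and nola-3, an H/ACA subunit, at 796. The methyltransferase gene fib-1 ranked 2389, its C/D partners nol-58 and nol-56 ranked 2094 and 8169, and the H/ACA subunit genes Y48A6B.3 and garr-1 (Y66H1A.4) ranked 1953 and 5024. The replicates placed fib-1 far apart, at 25479 in replicate 1 and 625 in replicate 2.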

How the data were processed

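Binding of eGFP-tagged ALY-2 was measured by ChIP-seq in 2 biological replicates of L3 larvae. Per the labels, the authors deposited relaxed lists of peaks and background regions for each replicate and for both pooled, on ce11 and ce10, and an optimal list of peaks kept by a test of irreproducible discovery rate (IDR). The height of a region is its deposited signal value. How it was scaled, the aligner and the peak caller are not given in the sources used. The labels name a possible control experiment, but not how it was used. Only ce11 lists were used, with 17335 pooled, 30000 replicate 1 and 26751 replicate 2 regions. Read counts were not used, so depth is unknown, and intervals cover counting over genes only.

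Gene annotation was that of Ensembl release 115, and bases were read from RefSeq's WBcel235; all 346 snoRNA spans were also in the RefSeq gene table, and 0 regions lay outside the chromosomes. A gene was assigned the highest region with its summit within 500 bp. For each replicate the highest 368 regions were taken, as many as the optimal list holds. The 5 comparisons between gene classes used Fisher's exact test, two-sided, with Benjamini-Hochberg adjustment and a threshold of 0.05; odds ratios are conditional estimates with exact 95% intervals. Genes that share a region are not independent, so 1 gene per cluster (1000 bp) was an alternative. The assignment and the odds ratio were checked on simulated data. The members and lists were chosen with earlier results of these data known, and the upstream elements and the length split after the sequences and values were seen, so these have no test. Named were all genes with an optimal summit, the 10 with the next highest regions, the 3 just inside and the 3 just outside 500 bp, hosts and neighbouring coding genes, and 8 snoRNP protein genes; C16A3.11, sup-6, sls-2.8 and rpr-1 were chosen after seeing their values. Computation used Python 3.11.15, numpy 2.4.6, pandas 2.3.3, scipy 1.17.1 and matplotlib 3.10.9.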

Additional observations from a re-analysis of the deposited data

How the results depend on the processing

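The alternatives changed the window, the box rules, the gene classes, the list or the replicate; those for the upstream elements, the length split and the C box with 1 mismatch were chosen after seeing the data. The count of 27 snoRNA genes with an optimal summit was 15 among the 184 highest optimal peaks and 51 in the highest 1000 pooled regions, and with 1 replicate left out it lay between 20 and 27. For optimal summits the odds ratio of intronic over free-standing genes passed 1 without genes near a coding 5′ end (1.15), among the 184 highest (1.69), in the highest 1000 regions (1.07) and with introns of any gene (1.13), and with 1 replicate left out it lay between 0.913 and 1.71; no alternative brought its adjusted exact p under 0.42. With a window of 1000 bp the ratio for any pooled region was 1.01 and that for replicate 2 was 1.23, and for replicate 2 it was also 1.04 with 1 gene per cluster, 1.19 without genes near a coding 5′ end and 1.09 with introns of either strand. The C/D-like against H/ACA-like odds ratio lost its call at 1000 bp (6.75, adjusted exact p = 0.0933), among the 184 highest (11.5, 0.0877), in the highest 1000 regions (4.53, 0.149), with boxes within 15 bases of the ends (8.59, 0.129) and with 1 mismatch in the C box (4.6, 0.177); with 1 replicate left out it lay between 11.4 and 11.5, and the call was lost without replicate 1. The 20 genes with either element and an optimal summit became 11 among the 184 highest and 15 to 18 with 1 replicate left out. The 18 short genes became 11 among the 184 highest, 30 in the highest 1000 regions and 15 to 18 with 1 replicate left out. The causes were not tested. Depth is unknown, so a gene without a listed region cannot be called unbound. No paired analysis was possible because the samples form 1 group, so no groups share replicate numbers.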
